A study of Mus musculus with 3 samples.

Results

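Ago2 HITS‐clip peaks wider than 1000 nt were examined in N2A cells, a mouse neuroblastoma line. Members were all deposited autosomal peaks whose stop minus start exceeded 1000 nt, which gave 65946 peaks of the 2039384 in the table. By library they numbered 20654 of 711377 peaks in replicate 1, 23146 of 498071 in replicate 2 and 22146 of 829936 in replicate 3. All 3 libraries belonged to a single group, N2A cells under basal conditions, with no treatment named in the labels. Per the labels, ultraviolet crosslinking used 400 mJ per square cm first and 200 in later rounds, and RNA was recovered with an antibody against Ago2. The labels do not say that the replicates were separate cultures, so the spread and p-values given here measure differences between these 3 samples, which may be technical. The table lists intervals without read counts, so read depth was unknown and confidence intervals cover the counting of peaks only.

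Argonaute proteins hold a microRNA (miRNA) of about the length of a short sequencing read and use its seed, the bases 2 to 8, to pair with messenger RNAs. In HITS‐clip the RNA crosslinked to Ago2 is trimmed to short fragments before sequencing, so the reads come from miRNAs and from the stretches of transcript they touch. Introns are removed from a transcript at a donor site, usually GT, and an acceptor site, usually AG. A read across an exon-exon junction therefore has its ends far apart on the genome.

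Deposited peaks were taken to carry 30 nt of padding on each side, and the ends described below lie 30 nt inside the deposited coordinates, on the strand of the peak. A long peak was called joined when both ends lay in exons of the same annotated transcript (GENCODE M21, GRCm38), with at least 1 intron between them and at most 200 nt left once introns were removed. There were 2612 joined peaks, and the other 63334 are called not joined. The sequences at the ends are shown first, because 2 kinds of sequence recurred there.

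The first kind was an annotated splice junction. The only intron spanned by joined peaks of all 3 libraries lay in Tnks2, which encodes tankyrase 2, a poly-ADP-ribosyltransferase. It has 1084 nt, lies at chr19:36880593-36881676 on the plus strand between exons 20 and 21 of 27, and both ends of the peaks lay in coding sequence. Exon bases are in capitals and intron bases in lower case.

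Tnks2 donor side, chr19:36880581-36880604, plus strand: GAGAGAGAACAGgtgagtgggtga
Tnks2 acceptor side, chr19:36881665-36881688, plus strand: ttcttttgtaagATTACCTTAGAT

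The second kind was a miRNA in 2 parts. In 163 not joined peaks the first bases at the 5′ end and the last bases at the 3′ end, read on as if nothing lay between them, spelled a mature mouse miRNA of at least 20 nt with at most 2 mismatches. The 6 examples below have the fewest mismatches and the most even division between both ends, 1 per seed, outside annotated miRNA genes, and were chosen after their values were seen. In the miRNA (RefSeq, GRCm38.p6) capitals mark the seed. In the peak ends capitals mark bases equal to the miRNA, and lower case marks mismatches and neighbouring bases.

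miR-130a-3p: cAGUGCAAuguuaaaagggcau
5′ end, chr11:39084990-39085006, plus strand: CAGTGCAATGTgtgctt
3′ end, chr11:39089887-39089907, plus strand: cagaagTAAAAGGGCATaatg
miR-26a-5p: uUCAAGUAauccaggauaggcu
5′ end, chr13:30569296-30569311, plus strand: TTCAAGTAATactgtc
3′ end, chr13:30571151-30571172, plus strand: taatgaCCAGGATAGGCTagtc
miR-199a-5p: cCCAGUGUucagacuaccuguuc
5′ end, chr1:35985681-35985698, minus strand: CCCAGgGTTCAGgcctag
3′ end, chr1:35982005-35982023, minus strand: ttctctACTACCTGTTCcg
miR-107-3p: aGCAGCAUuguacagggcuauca
5′ end, chr4:139676304-139676320, minus strand: AGCAGgATTGTtttctg
3′ end, chr4:139673924-139673944, minus strand: caagccACAGGGCTATCAagg
miR-125b-5p: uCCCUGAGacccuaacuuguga
5′ end, chr5:78577556-78577572, plus strand: TCCCTGAGcCCtccagt
3′ end, chr5:78586375-78586395, plus strand: atgactCTAACTTGTGAtaaa
miR-191-5p: cAACGGAAucccaaaagcagcug
5′ end, chr15:25451013-25451029, plus strand: CAACGGAATCCtcttgg
3′ end, chr15:25453250-25453269, plus strand: tataccCAAAAcCAGCTGac

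The peak with the ends of miR-130a-3p was 4978 nt wide and the one with those of miR-26a-5p 1937 nt, both in replicate 2 and both without a mismatch. The other 4 had 1 mismatch each. Their widths were 3754 nt (miR-199a-5p, replicate 3), 2457 nt (miR-107-3p, replicate 2), 8900 nt (miR-125b-5p, replicate 2) and 2317 nt (miR-191-5p, replicate 3). In these 6 peaks the first part held 10 to 12 bases of the miRNA, and 2 to 4 further genomic bases followed its last base.

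Shares of long peaks with each property are set beside the same measurement on the opposite strand. Replicate 1 had the lowest share on the same strand for each of the 4 properties.

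**Figure D1:**
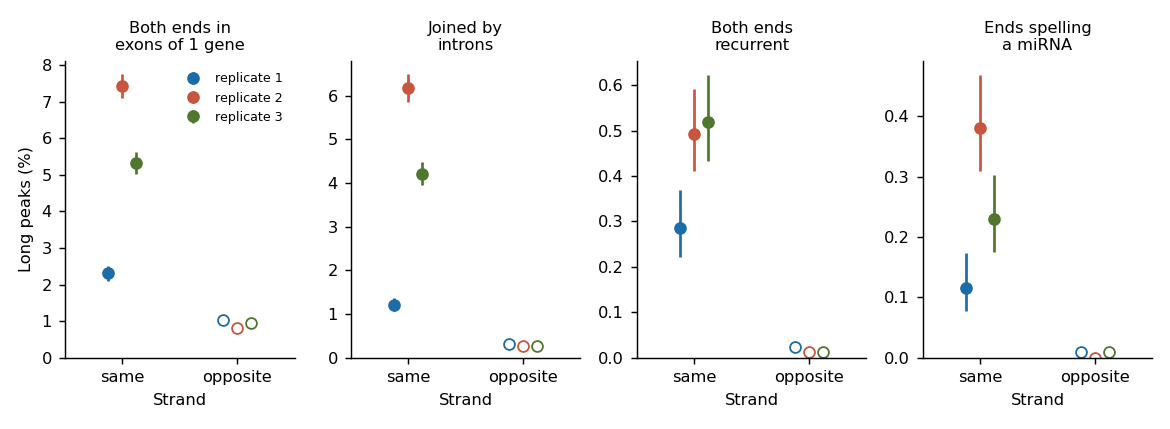
Percent of long peaks of each library with both ends in exons of 1 gene, joined by annotated introns, with both ends recurring within 20 nt elsewhere, and with ends spelling a miRNA with at most 2 mismatches, each on the same strand (filled, with Wilson 95% intervals) and on the opposite strand (open); the vertical scales differ between panels. In every panel the 3 filled points lie above the 3 open ones.

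Width chose the members and is given as description only. The median member of replicate 1 was 2678 nt wide, that of replicate 2 was 3427 nt and that of replicate 3 was 2770 nt, with means of 3548, 4920 and 3856 nt. Replicate 2 had the widest peaks at every quantile listed: its upper quartile was 6293 nt against 4462 nt in replicate 1 and 4914 nt in replicate 3. Peaks over 10000 nt numbered 741, 2531 and 1188. The threshold did not fall at a gap, because each library had members at 1001 nt and excluded peaks at 1000 nt. The last 100 nt below the threshold held 922, 784 and 1074 peaks and the first 100 nt above it held 901, 748 and 989.

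**Figure D2:**
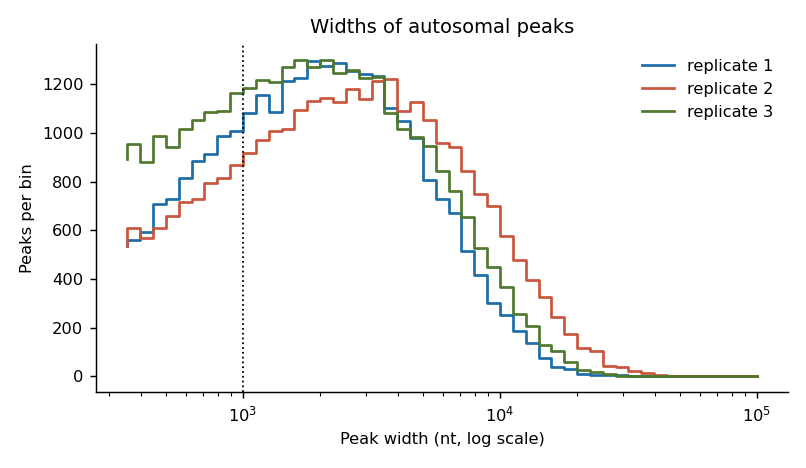
Number of autosomal peaks of each library (vertical axis) by width in nt (horizontal axis, log scale, bins of equal width on that scale), with a dotted line at 1000 nt. The curves pass the threshold without a step, and replicate 2 extends furthest to the right, with a mean width of 4920 nt.

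Although they made up 2.90%, 4.65% and 2.67% of the peaks of replicates 1, 2 and 3, long peaks held 54.9%, 72.2% and 53.3% of the summed autosomal width. They were split evenly over both strands, with 10294 on the plus and 10360 on the minus strand in replicate 1, 11558 and 11588 in replicate 2, and 11042 and 11104 in replicate 3. Density over the autosomes ranged from 7.59 to 9.70 per Mb in replicate 1, from 8.17 to 11.4 in replicate 2 and from 7.99 to 11 in replicate 3. The deposited score, whose meaning is not stated, was 60 for 94.8%, 97.5% and 98.8% of long peaks, against 98.9%, 99.3% and 99.6% of all peaks.

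The widest peak of replicate 1 covered 30521 nt on the minus strand at chr11:72272784-72303304. It overlapped no gene of its own strand. Xaf1, an apoptosis-associated gene, and n-R5s70, a ribosomal RNA gene, lie there on the other strand. The widest of replicate 2 covered 91047 nt on the plus strand at chr8:123534420-123625466. It started in a 3′UTR, ended in an intron and spanned 53 annotated genes, of which 51 are ribosomal RNA genes. Gas8 lay on its own strand. The widest of replicate 3 covered 57062 nt on the minus strand at chr4:156254941-156312002 and ended in an intron of Samd11. None of the 3 had a counterpart with both ends within 20 nt in another library, and none was joined.

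Neighbouring peaks of 1 library and strand overlapped by at most 60 nt, so the count on that strand was fixed in advance. No long peak enclosed the midpoint of another peak of its own library and strand (0 in each of the 3 libraries). On the opposite strand 7197, 6963 and 7479 long peaks of replicates 1, 2 and 3, that is 34.8%, 30.1% and 33.8%, enclosed at least 1. Long peaks also enclosed whole annotated genes. In replicate 2, 361 long peaks held a whole gene of the same strand and 523 a whole gene of the opposite strand, against 209 and 282 in replicate 1 and 226 and 340 in replicate 3.

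Most ends lay away from exons. Of the 5′ ends, 40.2 ± 1.66% lay outside genes, 26.4 ± 1.01% in introns and 23.6 ± 0.813% in genes of the opposite strand only (mean ± SD, n = 3 libraries here and below). Coding sequence held 2.79%, 8.06% and 6.27% of the 5′ ends of replicates 1, 2 and 3, and 2.98%, 8.49% and 6.76% of the 3′ ends. The 3′UTR, where most known miRNA sites lie, held 1.58%, 2.81% and 2.30% of the 5′ ends. Both ends lay within 1 gene of the same strand for 6462, 8303 and 7499 long peaks and within 1 gene of the opposite strand for 5193, 5284 and 5191. The ratio of these was 1.24, 1.57 and 1.44, so the same strand held more in each library.

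Both ends were in exons of 1 gene for 476 long peaks of replicate 1, 1718 of replicate 2 and 1179 of replicate 3. These were 2.30% (Wilson 95% interval 2.11 to 2.52), 7.42% (7.09 to 7.77) and 5.32% (5.04 to 5.63) of the long peaks. Against exons of the opposite strand the shares were 1.04%, 0.817% and 0.939%. The same strand exceeded the opposite strand in all 3 libraries (exact sign-flip permutation test over 3 libraries, two-sided, p = 0.25, the smallest that 3 libraries allow, here and for each such test below). Among peaks over 2000 nt the share fell to 2.61 ± 1.53%.

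Joined peaks accounted for most of this. They numbered 250 in replicate 1, 1428 in replicate 2 and 934 in replicate 3, or 1.21% (1.07 to 1.37), 6.17% (5.87 to 6.49) and 4.22% (3.96 to 4.49), a mean of 3.87 ± 2.498% against 0.284 ± 0.0181% on the opposite strand (exact sign-flip p = 0.25, two-sided). The 3 intervals did not overlap. The libraries differed on the same strand alone: the counts on the opposite strand were 63, 63 and 61. Over 2000 nt the mean share was 1.96%, and in 2571 of the 2612 joined peaks a single intron was spanned.

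With introns removed, most joined peaks were far shorter than the 200 nt their definition allows. The median spliced length was 31.5 nt in replicate 1 and 41 nt in replicates 2 and 3. Between 20 and 50 nt lay 209 of the 250 joined peaks of replicate 1, 1027 of the 1428 of replicate 2 and 666 of the 934 of replicate 3. The exonic part on the 5′ side had a median of 14, 19 and 19 nt and that on the 3′ side of 15, 18 and 19 nt. In 52, 218 and 150 joined peaks the shorter part had under 6 nt. On the opposite strand the few peaks meeting the same definition had shorter spliced lengths, with medians of 21, 21 and 22 nt.

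**Figure D3:**
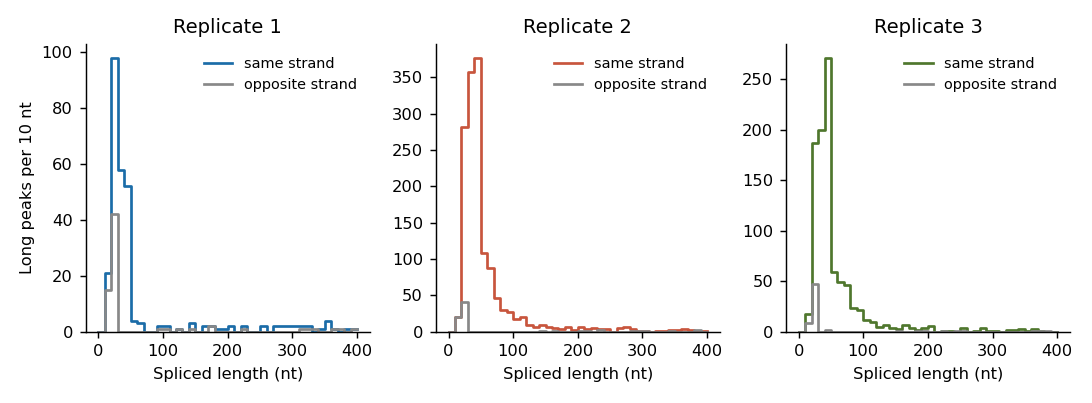
Number of long peaks (vertical axis, per 10 nt) by the distance between both ends along a transcript with introns removed (horizontal axis, nt), for peaks with at least 1 annotated intron between the ends, on the same strand (coloured) and the opposite strand (grey); the vertical scales differ. On the same strand the counts lie mostly between 20 and 50 nt, with medians of 31.5, 41 and 41 nt among joined peaks.

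The spanned introns had median lengths of 1393, 1634 and 1510 nt. Both ends lay in coding sequence in 75.6%, 77.9% and 79.2% of joined peaks and both in 3′UTRs in 12.4%, 14.8% and 14.03%. Protein-coding genes held 2586 of the 2612. Of the 18698 autosomal protein-coding genes with an intron of at least 741 nt, the shortest that a joined peak over a single intron can span, 1880 had a joined peak in at least 1 library, which is 10.1%, and 31 in all 3, which is 0.166%.

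Genes with joined peaks in all 3 libraries are named here after their values were seen, in order of the number of peaks. Tnks2 had 13, with 1, 6 and 6 in replicates 1, 2 and 3, over 9 different introns. Its spliced lengths ran from 25 to 108 nt. The intron between exons 20 and 21, shown above, was spanned by peaks of 1169 nt in replicate 1, 1188 nt in replicate 2 and 1196 nt in replicate 3, with spliced lengths of 25, 44 and 52 nt. In Tnks2, replicates 2 and 3 also shared the introns after exons 24 and 25.

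Fn1, which encodes the extracellular matrix protein fibronectin, had 9 joined peaks (1, 6 and 2) over 8 introns. Dst, which encodes the cytoskeletal linker dystonin, had 7 over 7 introns (1, 5 and 1), each with both ends in coding sequence. Rrn3, a transcription factor of RNA polymerase I, also had 7 (1, 5 and 1), over 7 introns. Most introns of these 4 genes were thus hit in a single library.

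The list went on with Ptprj, a receptor tyrosine phosphatase (6 peaks), the nuclear pore gene Nup93, Rpn2 of the oligosaccharyltransferase and the DNA topoisomerase Top2a (5 each). Dicer1, the ribonuclease that cuts miRNAs from their hairpins, had 4, with 1, 1 and 2 in replicates 1, 2 and 3, over 4 introns. The replication helicase subunit Mcm6, the cohesin subunit Smc3 and the non-muscle myosin Myh9 had 1 each in every library.

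Listed gene groups are read against the 10.1% of protein-coding genes with a joined peak. Among heat shock and chaperonin genes 5 of 16 with a long enough intron had one, and all 5 were subunits of the CCT chaperonin: Cct3 had 2 joined peaks, and Cct4, Cct5, Cct7 and Cct8 had 1 each. Neuronal cytoskeleton genes had 5 of 23, among them Dpysl2 with 2 and Map1b, Mapt and Dpysl3 with 1 each. Translation factors had 4 of 25 and glycolysis genes 2 of 16, with 2 joined peaks in Pfkp and 1 in Hk1. Cytosolic ribosomal protein genes, among the most highly expressed in most cells, had 2 of 58, namely Rps10 and Rps14. Splicing proteins (Srsf11) and long neuronal genes (Lrp1b) had 1 of 26 each, and no group had a gene with joined peaks in all 3 libraries. The 17 snoRNA host genes had no member among the genes counted.

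Neuroblastoma markers had a joined peak in 0 of 13 genes. Their exons did carry peaks of 86 to 200 nt: 12 of 15 markers had at least 1 in some library, and 9 had at least 1 in all 3, against 55.8% and 27% of the 20807 autosomal protein-coding genes. Of 7 markers of other cell types, Hbb-bs, Alb, Cd68 and Myh6 had none in any library. Ptprc, a leukocyte surface phosphatase, had 11, 6 and 10 such peaks and 1 joined peak in replicate 3, Mbp had 2, 1 and 8, and Col1a1 had 1, 0 and 0. The part of other cells in the long peaks was not tested.

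Donor motifs at the ends of long peaks were counted as GTAAGT or GTGAGT on the strand of the peak, searched on that strand alone; an instance of each can share GT with the other. By definition the 5′ end of a joined peak has an annotated donor site at most 200 nt away, so its motif count is a description. Within 100 nt inward of the 5′ end of joined peaks they occurred in 32.8%, 34.0% and 34.4%, against 4.40%, 3.29% and 4.18% inward of the 3′ end. In not joined peaks the shares were 5.48%, 6.01% and 5.47% at the 5′ end and 4.90%, 4.86% and 5.26% at the 3′ end. Peaks of 86 to 200 nt had 6.12 ± 0.695% and 5.53 ± 0.499%. For all long peaks the difference between the ends was 0.915, 2.98 and 1.48 percentage points (exact sign-flip p = 0.25, two-sided), a test that includes the joined peaks. For not joined peaks it was 0.578, 1.15 and 0.217, within the range of −0.565 to 1.74 over libraries in peaks of 86 to 200 nt. Over 2000 nt the difference for all long peaks was 1.09.

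Repeats, marked by lower case in the reference, held 5.10 ± 1.14% of the 5′ ends and 4.76 ± 0.527% of the 3′ ends of joined peaks. In not joined peaks they held 19.4 ± 0.841% and 20.04 ± 1.68%, close to the 20.2 ± 0.948% and 19.97 ± 0.803% of peaks of at most 85 nt. Peaks of 86 to 200 nt had 31.8 ± 6.08% and 29.2 ± 7.11%.

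Both ends of a long peak were found within 20 nt in 1 of the other libraries, strand included, for 59 peaks of replicate 1, 114 of replicate 2 and 115 of replicate 3. These were 0.286% (0.222 to 0.368), 0.493% (0.410 to 0.591) and 0.519% (0.433 to 0.623), against 5, 3 and 3 peaks on the opposite strand (exact sign-flip p = 0.25, two-sided). Peaks of 86 to 200 nt recurred by the same measure in 10.1% of cases, and in 0.707% on the opposite strand. The share of long peaks that recurred on the same strand was thus lower than that of the shorter class in each library. Recurrence was uneven over pairs of libraries. Replicates 2 and 3 shared 86 long peaks, replicates 1 and 2 shared 30, and replicates 1 and 3 shared 31, of which 35, 13 and 15 had identical ends. Without replicate 2 the mean share was 0.145%, and without replicate 3 it was 0.137%, where 1 library fewer can supply a match.

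Of the long peaks that recurred, 18 of 59, 35 of 114 and 31 of 115 were joined in replicates 1, 2 and 3. Of the joined peaks 7.20%, 2.45% and 3.32% recurred in replicates 1, 2 and 3, and of the others 0.201%, 0.364% and 0.396%. Across all libraries joined peaks spanned 2470 introns in a single library, 92 in a pair and 1 in all 3.

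Joined peaks over the Tnks2 intron shown above had starts spread over 8 nt and stops over 21 nt, just past the limit of 20 nt. Of the loci with both ends within 20 nt in all 3 libraries there were only 2, and neither was joined. The first covered 4835 nt on the minus strand at chr4:144661508-144666342 with identical ends in the 3 libraries. Both ends lay outside genes, and the nearest protein-coding gene, Gm436, was 3594 nt away. The second, on the minus strand, lay in an intron of Pde6d, a lipid-binding chaperone that carries prenylated proteins. It covered chr1:86567235-86568656 in replicates 1 and 3 (1422 nt) and chr1:86567231-86568657 in replicate 2 (1427 nt). None of these 4 ends lay in a marked repeat, and their outermost 24 bases are shown because they are the long peaks found most often. They are written in lower case throughout, which does not mark repeats here.

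5′ end, chr4:144666289-144666312, minus strand: tagcatccagtacacagaccagct
3′ end, chr4:144661538-144661561, minus strand: tgtgctatagtaaaattggcgttg
5′ end, chr1:86568603-86568626, minus strand: atacatacacgttctacagtgcag
3′ end, chr1:86567265-86567288, minus strand: caactaaggtagtttcaggttgtt

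Read together, the ends of the chromosome 4 locus differed from the nearest miRNA at 4 bases and those of the Pde6d locus at 8.

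Per nt, cover by peaks of the other libraries was higher at the ends of long peaks than between them, where it was not absent. Peaks of at most 200 nt from the other 2 libraries covered 3.64%, 5.30% and 3.23% of the 200 nt inward of both ends in replicates 1, 2 and 3, and 1.98%, 2.32% and 1.51% of the middle. Ends over middle came to 1.84, 2.28 and 2.14 on the same strand and to 1.07, 1.13 and 1.10 on the opposite strand (exact sign-flip p = 0.25, two-sided). Joined peaks had the highest cover at their ends, 13.3%, 15.0% and 6.88%, which in their case are exons, but not joined peaks showed the same contrast, with 3.52%, 4.66% and 3.07% at the ends and 1.95%, 2.18% and 1.49% in the middle. With cover by peaks of all widths, long ones included, the ratio was 1.33, and from replicates 2 and 3 alone it was 2.94.

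**Figure D4:**
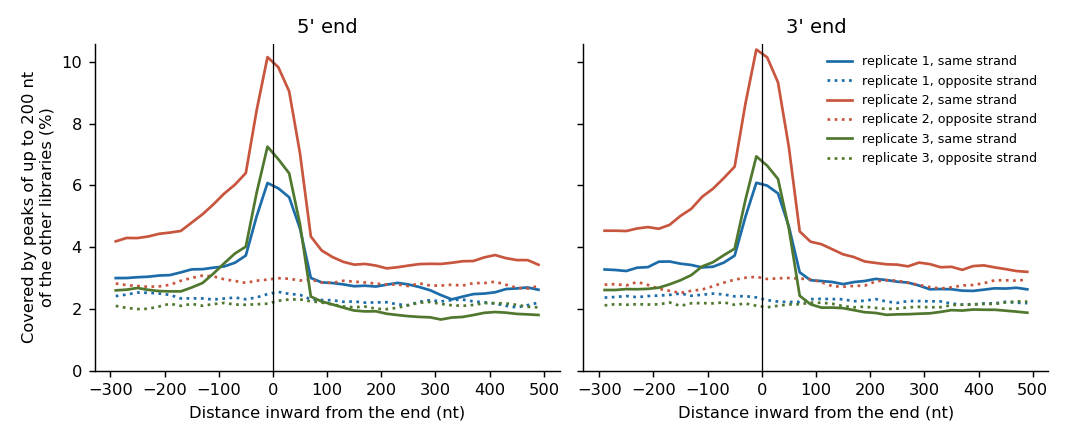
Percent of positions covered by peaks of at most 200 nt of the other 2 libraries (vertical axis) by distance inward from the 5′ end (left) and the 3′ end (right) of long peaks in nt (horizontal axis), on the same strand (solid) and the opposite strand (dotted). On the same strand cover is highest within about 30 nt of both ends, inside and outside, and is higher at −110 nt than at 70 nt. It shows no such rise on the opposite strand, where ends over middle was 1.07 to 1.13.

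The miRNA letters at the ends were measured in 2 ways. The first asked how often the 8 bases at the 5′ end of a long peak equal the first 8 bases of any of 1622 mature mouse miRNA sequences of at least 20 nt (1686 RefSeq entries). In not joined long peaks this held for 833 in replicate 1, 1312 in replicate 2 and 1043 in replicate 3, or 4.08% (3.82 to 4.36), 6.04% (5.73 to 6.37) and 4.92% (4.63 to 5.22). At every other offset within 10 nt the shares were 2.67 to 3.66%, 2.85 to 4.001% and 2.80 to 3.61%. Reading inward from the 3′ end on the opposite strand gave 3.19%, 3.43% and 3.19% (exact sign-flip p = 0.25, two-sided, for a mean difference of 1.74 percentage points). At other offsets the opposite strand rose to 4.07%, 3.85% and 4.06%, in each library at offset 4. That value lay inside the interval of the share at the 5′ end in replicate 1, and below the intervals in replicates 2 and 3.

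The same share was 3.64% over all peaks of at most 85 nt and 3.1% over those of 86 to 200 nt. In each library it was lower than among not joined long peaks. Joined peaks had 4%, 3.71% and 2.14%, against 4.40%, 2.66% and 2.78% on the opposite strand, with no common direction.

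**Figure D5:**
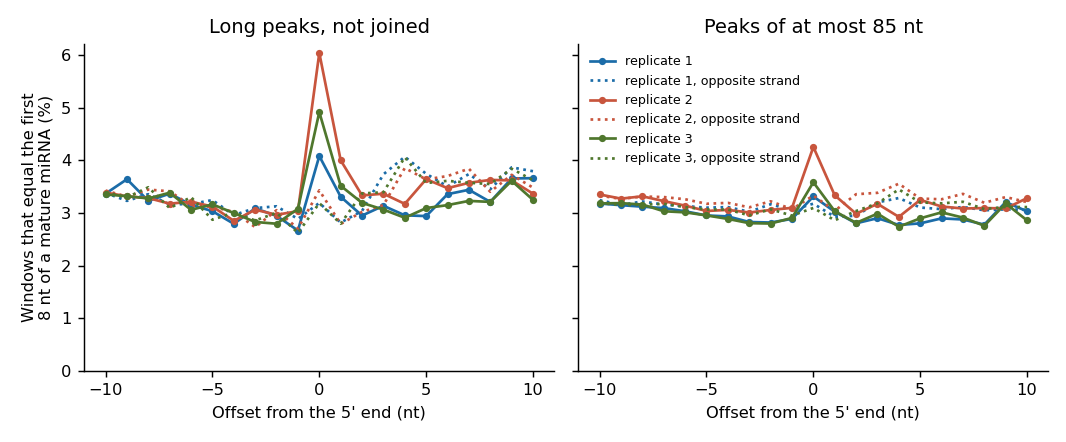
Percent of 8 nt windows equal to the first 8 nt of a mature miRNA (vertical axis) by offset from the 5′ end of the peak in nt (horizontal axis), for not joined long peaks (left) and peaks of at most 85 nt (right), on the same strand (points) and the opposite strand (dotted). The highest same-strand share of long peaks is at offset 0, with 4.08%, 6.04% and 4.92%, but the opposite strand reaches 4.07% at offset 4 in replicate 1, about the same as that library's highest.

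The most frequent start over the 3 libraries together, at 117 peaks (41, 25 and 51 in replicates 1, 2 and 3), was that of miR-7007-5p, which also occurred up to 35 times at a neighbouring offset. In replicate 2 it was less frequent than those of the miR-23a, miR-15, miR-27, let-7, miR-20a, miR-29, miR-125 and miR-30 families. Over all libraries the 7 next most frequent belonged to miRNA families common in many tissues, and are described without a test because they were picked by their counts. Letters are written as in the miRNA, with the seed in capitals.

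miR-23a-3p: aUCACAUU
miR-15 and miR-16 family: uAGCAGCA
miR-27a-3p and miR-27b-3p: uUCACAGU
miR-21a-5p and miR-21c: uAGCUUAU
let-7 family: uGAGGUAG
miR-30 family: uGUAAACA
miR-20a-5p and miR-106b-5p: uAAAGUGC

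The start of miR-23a-3p was found at the 5′ end of 10, 46 and 27 not joined long peaks in replicates 1, 2 and 3, and at 0 on the opposite strand. That of the miR-15 and miR-16 family occurred at 12, 49 and 22 (6 on the opposite strand), and that of miR-27 at 5, 43 and 34 (2). Replicate 2 had the most in each of these families. The start of miR-21a-5p, the miRNA the study followed, ran the other way between libraries, with 29, 20 and 14, and was found at 0 on the opposite strand. let-7 had 7, 34 and 15 (3 on the opposite strand), miR-30 had 5, 26 and 24 (4), and miR-20a-5p with miR-106b-5p had 7, 31 and 14 (2). At offsets of 1 to 3 nt on either side none of these 7 starts was found more than 9 times.

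The second way took both ends together. With at most 2 mismatches over the whole miRNA, 24 not joined peaks of replicate 1, 88 of replicate 2 and 51 of replicate 3 spelled a miRNA, which is 0.116% (0.0781 to 0.173), 0.380% (0.309 to 0.468) and 0.230% (0.175 to 0.303) of all long peaks of the library. Read on the opposite strand the counts were 2, 0 and 2 (exact sign-flip p = 0.25, two-sided), and with the 5′ end read 3 nt further in they were 4, 2 and 3. At most 1 mismatch left 39 peaks, with 0 on the opposite strand, and 5 had no mismatch. At most 3 mismatches gave 543 peaks against 59. None of the 2612 joined peaks spelled a miRNA with at most 2 mismatches.

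Where the miRNA was divided is partly set by the search, which asked for at least 6 bases at each end. For a given number of bases after the miRNA, ties went to the longest first part. The division is therefore a description only. The first part had a median of 12 bases and the last part of 9, and in 147 of the 163 peaks the first part had 10 to 16. After the last base of the miRNA, 2 to 4 further bases followed in 122 peaks and none in 6. These peaks were 1013 to 21093 nt wide with a median of 3634 nt. Marked repeats held 17.2% of their 5′ ends and 16.6% of their 3′ ends. Both ends lay in 1 gene of the same strand in 20.9%, against 33.7 ± 2.30% of all long peaks. The latter include the joined peaks, which have both ends in 1 gene by definition, so the 2 sets are not alike. Both ends recurred in another library within 20 nt in 10 of the 163, against 0.201%, 0.364% and 0.396% of all not joined peaks of replicates 1, 2 and 3.

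The 163 peaks spelled 96 different miRNAs, so most were found only a few times. Grouped by seed, the miR-30 family (seed GUAAACA) led with 11 peaks, of which 3, 7 and 1 were in replicates 1, 2 and 3. The miR-27 pair (UCACAGU) had 8, let-7 (GAGGUAG) and the miR-26 pair (UCAAGUA) had 7 each. The miR-17, miR-20, miR-93 and miR-106 group (AAAGUGC), the miR-25, miR-32 and miR-92 group (AUUGCAC) and miR-23a-3p (UCACAUU) had 6 each. miR-26a-5p was found at 2 peaks in every library. miR-155-5p had 4, and miR-21a-5p with miR-21c had 4.

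In 4 of the 163 an end lay in an annotated miRNA gene. Both peaks of miR-181c-5p, in replicates 2 and 3, ended in the Mir181c gene itself, at chr8:84178889-84184245 and chr8:84178891-84184245 on the minus strand. There the last 15 bases of the miRNA were in that gene, and its first 7 bases were matched at the other end of the peak. The other 2 matched miR-7689-3p and miR-141-3p in replicate 3. All other matches lay with both ends outside the miRNA genes of the reference table.

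Long peaks also reached genes whose 3′UTR had no other peak. A 3′UTR is annotated for 20569 protein-coding genes, and it was overlapped in 7334, 9381 and 10131 of them by at least 1 peak of replicates 1, 2 and 3, counting every position between start and stop. In 216, 236 and 177 of them, or 2.95%, 2.52% and 1.75%, the only overlap came from the middle of a long peak, more than 80 nt inside its deposited start or stop. In a further 221, 229 and 165 the only overlap came from the ends of a long peak.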

How the data were processed

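Ago2 HITS‐clip peaks of 3 samples were analysed as the authors deposited them, in a table of start, stop, strand, score and sample. The deposited score has no stated unit and lay between 54.6 and 60 for the long peaks. Per the labels the build is mm10, and the processing notes name FastQC, cutadapt and STAR without versions. The peak caller is not given in the sources used here. Columns of other samples numbered 0.

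Starts were counted from 0 and stops from 1. Peaks were taken to carry 30 nt on each side, because neighbouring peaks of a strand overlapped by at most 60 nt and the base composition changed there. Members were autosomal peaks over 1000 nt. The members, gene lists and measures were chosen with earlier results of these data known. Ends were compared with GENCODE M21 exons, RefSeq GRCm38.p6 sequence and RefSeq mature miRNAs, of which 1622 different sequences had at least 20 nt. A miRNA was laid over both ends of a peak with at least 6 bases at each end and up to 5 bases after its last base. Loci named were those with both ends recurrent in all 3 libraries and the widest peak of each library. Other genes and miRNAs were named after their values were seen. Differences over libraries were tested with an exact sign-flip permutation test. Shares carry Wilson intervals at the 95% level. The scripts were tested on simulated data. Alternatives covered the width threshold, chromosomes, padding, exon set, spliced length, end tolerance, windows, mismatches and each replicate left out. Python 3.11.15 was used with pysam 0.24.0, numba 0.67.0, scipy 1.17.1, pandas 2.3.3, matplotlib 3.10.9 and numpy 2.4.6.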

Additional observations from a re-analysis of the deposited data

Results flagged for a closer look

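Peaks over 1000 nt were also present outside the autosomes, on sequences that the main comparisons above did not use. Chromosome X carried 2559 (824, 885 and 850 in replicates 1, 2 and 3). Chromosome Y carried 44 (16, 19 and 9). They are listed as data outside the main comparisons, and no test was made of them on their own. An alternative run on all 21 primary nuclear chromosomes included them. There both ends recurred in 0.433% of long peaks, against 0.0163% on the opposite strand (exact sign-flip p = 0.25, two-sided).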

How the results depend on the processing

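No paired analysis was possible because there is only 1 group. No result turned direction under any alternative run. Recurrence of both ends moved from 0.432% to 0.303% within 5 nt and to 0.574% within 50 nt, and lay between 0.137% and 0.380% with a replicate left out. The ratio of recurrence on the same over the opposite strand was 29.4 as a mean, and between 10.3 and 86 with a replicate left out. It had no value over 2000 nt or within 5 nt, where the opposite strand had no match in any library. Cover at the ends over the middle was 2.09 as a mean, 2.67 with end windows of 100 nt, 1.33 with cover by peaks of all widths, and 1.84 to 2.94 with a replicate left out. The share of long peaks spelling a miRNA, 0.242%, was 0.0579% with at most 1 mismatch and 0.807% with at most 3. This measure, its limit of 2 mismatches and its alternatives were all chosen after the data were seen. The cause of these shifts was not tested, beyond what a looser or stricter limit does by itself. The mean count of long peaks stayed within 1.5 times under each alternative run, while over 2000 nt replicate 1 had 13575 and replicate 3 had 14667, a little beyond that. The other values moved by less than 1 SD over libraries. With read depth unknown, the lower shares in replicate 1 cannot be set against its depth, and whether alignments with gaps made the long peaks was not tested, since alignments are not analysed here.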
